A study of Mus musculus with 6 samples.

Results

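The genes described here encode the enzymes that build cholesterol and fatty acids, together with the proteins that sense sterols and switch these enzymes on. They are 32 genes chosen by name from textbook pathways, with earlier results of these data known, out of 32564 genes with summed transcript values, and all 32 passed the filter on low counts, which left 15012 genes for testing. RNA was measured in cells sorted by flow cytometry as quiescent neural stem cells from the subependymal zone, a stem cell niche that lines the lateral ventricles. The mice were gfap:GFP transgenic animals (strain given in the labels as C56BL/6J), 3 months old, in which the promoter of the glial gene Gfap drives green fluorescent protein. There were 2 groups of 3 libraries, made from cells taken 3 days after intraventricular injection. The antagomir group received miR-204 antagomir, an oligonucleotide that blocks the microRNA miR-204 by pairing with it, and the vehicle group received artificial cerebrospinal fluid (aCSF). The treatment field of the labels names the antagomir for all 6 samples, and the groups were taken from the sample titles. No control oligonucleotide is named, and blocking of miR-204 and a response to injected oligonucleotide cannot be told apart. Whether replicates came from separate animals or from pools is not stated, so the spread behind each p-value is that of these libraries and may be partly technical. The libraries held 14866453 to 19694409 estimated counts. Gfap itself measured 164, 127 and 207 TPM (transcript abundance scaled for transcript length and library size) in the antagomir libraries and 362, 246 and 126 TPM in the vehicle libraries. Markers of oligodendrocytes, microglia, neuroblasts and ependymal cells were also present, and their values are given after those of the synthesis genes.

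Cholesterol is made from acetyl-CoA through mevalonate, farnesyl diphosphate, squalene and lanosterol, while fatty acids are made from malonyl-CoA and then elongated and desaturated. Most enzymes of both routes are switched on by the SREBP transcription factors, the products of Srebf1 and Srebf2. SREBPs are held in the endoplasmic reticulum by Scap and the Insig proteins when sterols are plentiful and are released when sterols are low. In the brain nearly all cholesterol is made locally, mostly by astrocytes and by oligodendrocytes, which use large amounts for myelin.

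The treatment blocks miR-204, so its sequence is shown with the stretches of the synthesis genes that match it. The seed, bases 2 to 8 of the microRNA, is in capitals in the mature sequence (RefSeq, GRCm38.p6, chr19:22750610-22750631, plus strand), and the matching bases are in capitals in 3 sites read from GENCODE M21 transcripts (GRCm38).
miR-204-5p: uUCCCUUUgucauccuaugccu
Elovl5 3′ UTR (chr9:77983033-77983061, plus strand): ctagactgtggAAAGGGAAtgttcttgta
Lss 3′ UTR (chr10:76553267-76553295, plus strand): gcttcagtgagAAAGGGAAgaagatgagc
Elovl6 3′ UTR (chr3:129634365-129634393, plus strand): atgcagaactgAAAGGGAAgaagctcagc
These 3 genes were the members with an 8mer match, the seed match followed by A. A further 2 members, Stard4 and Fads2, had the shorter 7mer-m8 match AAAGGGA, and the Fads2 match was found in a GENCODE M21 transcript of 3150 bases whereas the deposited files list 1508 bases for it. In all, 5 of 31 members searched (16.1%) had a match, against 13.5% of 13813 tested protein-coding genes. The members' median 3′ UTR was 1498 bases long, against 880 bases over those genes. Srebf1 had no annotated 3′ UTR in the transcript used and was not searched. The log2 fold changes of antagomir over vehicle in the 5 genes with a match were -0.15 for Elovl5, 0.057 for Lss, 0.17 for Elovl6, 0.047 for Stard4 and -0.051 for Fads2. They lay on both sides of 0, and none passed the test. A match is a description of letters and not evidence of regulation.

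The synthesis genes were expressed in every library, and most were slightly higher in the antagomir libraries, with no gene past the test. Of the 32 members 24 had a positive fold change and 8 a negative one, and their median log2 fold change was 0.15. Over all 15012 genes tested, 49.1% had a positive fold change, 50.9% had a negative one, and the median was -0.0062. Because the members were chosen with earlier results known, this contrast is a description. By the quasi-likelihood test of edgeR, adjusted by Benjamini-Hochberg, 0 of 32 members passed, as did 0% of all genes (0 called). At an unadjusted p under 0.05 there was 1 member, Insig1, which was higher in the antagomir libraries (2.18% of all genes were higher at that level and 1.93% lower). DESeq2 and limma-voom also called 0 members. At an unadjusted p under 0.05 DESeq2 had 1 of 32 members, beside 917 of 20802 genes in its fit. At that level limma-voom had 3 of 32 members, beside 1064 of 15012 genes. Every member's fold change lay between -0.26 and 0.52 on the log2 scale, and the largest, that of Insig1, was 1.43-fold. In simulated counts for this comparison, over 14707 genes, edgeR recovered 0 of 50 genes changed 1.5-fold, 18 of 50 changed 2-fold and 37 of 50 changed 4-fold. The members' differences were all below the smallest simulated size. The changed genes were drawn at random from all genes tested, so these counts do not give a recovery rate for the members themselves. Without antagomir replicate 1 the members' median was 0.050, with 20 members positive, and without antagomir replicate 2 it was 0.23, with 26 positive. Without vehicle replicate 1, which stood apart in microglia markers, it was 0.11, with 23 positive.

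**Figure D1:**
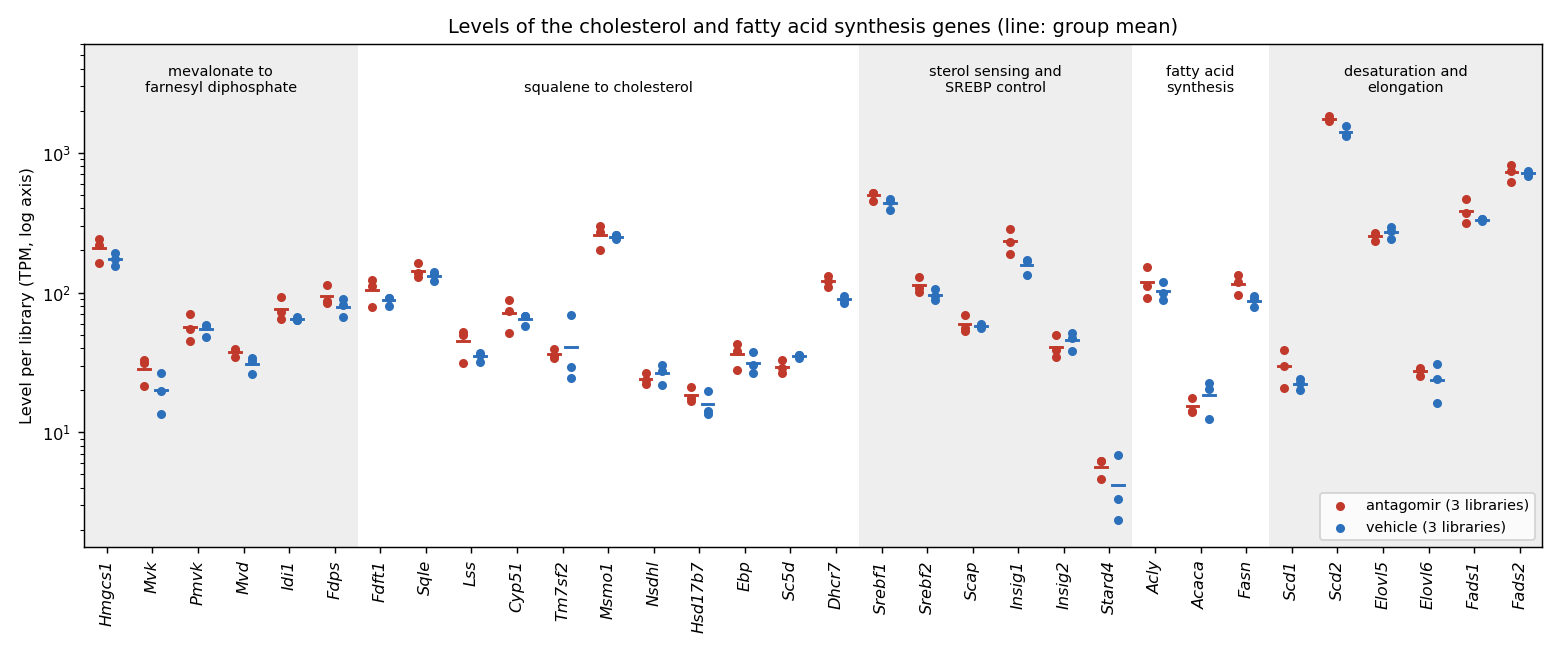
Level of each of the 32 genes in TPM on a log axis, with a point per library (antagomir left, vehicle right) and a line at each group's mean, in pathway order. Scd2 stood highest, at 1675 to 1819 TPM in the antagomir libraries and 1313 to 1563 TPM in the vehicle libraries, and Stard4 lowest, at 4.65 to 6.22 and 2.34 to 6.86 TPM.

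Levels are given in TPM, which accounts for transcript length and so allows genes to be compared. Fold changes come from edgeR on counts summed per gene, and errors on TPM are SDs over n = 3 libraries per group. Ranked by mean TPM among the genes tested, Scd2 was at place 44, Fads2 at 132, Srebf1 at 216 and Fads1 at 297. The lipid desaturases and a lipid transcription factor thus had the highest levels among the members. At the other end stood Hsd17b7 at place 8230, Acaca at 8286 and Stard4 at 11826. Of the members' summed TPM, Scd2 made up 29.3%, 32.3% and 29.7% in the antagomir libraries and 27.1%, 29.6% and 27.5% in the vehicle libraries. Each deposited most-abundant transcript had the same length as in GENCODE M21 for 25 members. The level of Fads2 is stated per 1508 bases and that of the Sc5d transcript per 2249 bases, where GENCODE M21 gives 3150 and 4787 bases, so their places among the genes are uncertain.

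Genes of the mevalonate stage, from acetyl-CoA units to farnesyl diphosphate, all had positive fold changes, 6 of 6 with a median of 0.18, and none passed the test. Hmgcs1 encodes HMG-CoA synthase, the enzyme that forms the precursor of mevalonate (ENSMUSG00000093930.2, chromosome 13, 119690379 to 119708260 in GRCm38). It measured 241, 164 and 219 TPM in the antagomir libraries and 155, 173 and 193 TPM in the vehicle libraries. Antagomir replicate 2 lay inside the vehicle range, so the groups overlapped (log2 fold change 0.19, SE 0.18, edgeR adjusted p = 0.950). The fold change was 0.072 without antagomir replicate 1, and 0.34 and 0.30 without antagomir replicate 2 and vehicle replicate 3. Idi1, the isomerase that interconverts the isoprene units, measured 72.3, 65.1 and 92.3 TPM with antagomir and 64.0, 66.8 and 63.7 TPM with vehicle. Again antagomir replicate 2 fell inside the vehicle range and antagomir replicate 3 stood above all other libraries (log2 fold change 0.17, SE 0.17, but 0.036 without antagomir replicate 3 and 0.31 without antagomir replicate 2). Fdps, which joins isoprene units into farnesyl diphosphate, measured 113, 87.6 and 84.6 TPM with antagomir and 89.9, 82.0 and 66.4 TPM with vehicle. The groups overlapped, and the log2 fold change of 0.17 (SE 0.18) was 0.044 without antagomir replicate 1, 0.071 without vehicle replicate 3 and 0.28 without vehicle replicate 1.

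Mvd, the decarboxylase that turns mevalonate diphosphate into the isoprene unit, was the member of this stage whose groups did not overlap in TPM, at 38.6, 34.3 and 39.3 TPM with antagomir and 34.2, 32.5 and 26.3 TPM with vehicle. The gap was narrow, and on the CPM scale (counts scaled for library size, as in the fit) the groups overlapped (log2 fold change 0.20, SE 0.18, and 0.12 without vehicle replicate 3). Mvk, mevalonate kinase, had the largest fold change of the stage and a wide spread, at 28.4 ± 6.21 TPM with antagomir and 19.9 ± 6.67 TPM with vehicle (log2 fold change 0.39, SE 0.29, with 0.20 without vehicle replicate 3 and 0.63 without vehicle replicate 2). Pmvk, the next kinase, measured 57.0 ± 12.7 TPM with antagomir and 54.6 ± 5.94 TPM with vehicle, and its fold change of 0.030 turned to -0.16 without antagomir replicate 1. The stage's median ranged between 0.13 and 0.29 as each library was left out, the highest without antagomir replicate 2.

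A short promoter stretch of Hmgcs1 is shown for the core of the sterol regulatory element, the site that SREBPs bind. It holds the only match to the core among the 25 members with a promoter window. The core, TCACNCCAC with N as any base, is in capitals (RefSeq, GRCm38.p6, chr13:119690204-119690232, plus strand), and it begins at position -137 from the RefSeq start site, which lies upstream of the GENCODE start given above.
Hmgcs1 promoter: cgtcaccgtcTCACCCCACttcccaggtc
Promoter windows of 300 bases were held for 25 of 32 members and for 27025 genes in all, and motifs were searched on both strands. The full element has A before the core and C as its free base. It was found in 0 of 25 members (0%) and in 0.0999% of all genes. The core was found in 1 of 25 members (4%) and in 1.44% of all genes. The core match in Hmgcs1 has C in place of that A. CCAAT, the box of NF-Y, a factor that often binds beside SREBPs, was found in 21 of 25 members (84%) and in 41.1% of all genes. GGGCGG, the box of Sp1, was found in 20 of 25 members (80%) and in 38.2% of all genes. The 27025 genes were not limited to those that passed the filter on low counts, whereas all members had passed it. The shares are therefore not over like sets, and tested genes alone were not searched for these motifs. These counts describe letters in the windows, and some genes have several windows.

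From squalene to cholesterol, 7 of 11 genes had positive fold changes and 4 negative ones, with a median of 0.057, and none passed the test. Dhcr7, which carries out a last step to cholesterol (ENSMUSG00000058454.15, chromosome 7, 143823145 to 143848410), measured 110, 122 and 130.5 TPM in the antagomir libraries and 84.5, 94.9 and 88.2 TPM in the vehicle libraries. All 3 antagomir libraries stood above all 3 vehicle libraries, in TPM and in CPM (log2 fold change 0.29, SE 0.14, unadjusted p = 0.0800, edgeR adjusted p = 0.949). The fold change of Dhcr7 stayed between 0.20 and 0.35 as each library was left out. Sc5d, the desaturase that acts just before Dhcr7 (ENSMUSG00000032018.14, chromosome 9, 42251595 to 42264256), went the other way, at 26.8, 32.9 and 28.8 TPM with antagomir and 35.8, 35.5 and 34.1 TPM with vehicle. All 3 antagomir libraries were below all 3 vehicle libraries (log2 fold change -0.26, SE 0.16, edgeR adjusted p = 0.949). Among all genes tested, the groups did not overlap in TPM with antagomir higher in 7.05% and with antagomir lower in 3.7%. Among the members this held for 5 genes higher (15.6%: Mvd, Dhcr7, Insig1, Fasn and Scd2) and 1 lower (3.13%: Sc5d). In CPM it held for 5 higher, with Srebf1 in place of Mvd, against 5.07% of all genes, and for Sc5d on the lower side, against 5.45%.

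Fdft1, squalene synthase, measured 104 ± 22.5 TPM with antagomir and 88.1 ± 6.65 TPM with vehicle (log2 fold change 0.17, SE 0.18). Its fold change was 0.043 without antagomir replicate 1 and 0.34 without antagomir replicate 2. Sqle, squalene epoxidase and a rate-setting step after mevalonate, measured 138, 129 and 163 TPM with antagomir and 120.5, 136 and 140.2 TPM with vehicle, with the groups overlapping (log2 fold change 0.047, SE 0.15). Msmo1, which removes methyl groups from the sterol ring, was the most abundant gene of this stage, at 269, 203 and 299 TPM with antagomir and 257, 240.0 and 256 TPM with vehicle. The vehicle libraries lay within the antagomir range, and the fold change of -0.011 (SE 0.15) had no stable sign. Cyp51, the lanosterol demethylase, measured 88.0, 51.4 and 73.8 TPM with antagomir and 68.2, 68.4 and 57.6 TPM with vehicle. Antagomir replicate 1 was the highest library and antagomir replicate 2 the lowest, and the fold change of 0.20 (SE 0.24) turned to -0.093 without antagomir replicate 1.

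The remaining sterol genes spread to either side. Nsdhl, a sterol dehydrogenase of the X chromosome, measured 24.1 ± 2.23 TPM with antagomir and 26.7 ± 4.43 TPM with vehicle (log2 fold change -0.22, SE 0.20, with -0.33 without vehicle replicate 1 and -0.13 without vehicle replicate 2). Hsd17b7, which acts with it, measured 18.5 ± 2.33 and 15.8 ± 3.48 TPM in the antagomir and vehicle libraries (0.17, SE 0.21). Leaving out antagomir replicate 1, vehicle replicate 1 or vehicle replicate 3 gave 0.047, 0.089 or 0.31 for Hsd17b7, and leaving out antagomir replicate 2 gave 0.28. Ebp, the sterol isomerase, measured 36.3 ± 7.66 TPM with antagomir and 31.5 ± 5.47 TPM with vehicle (0.076, SE 0.21). Tm7sf2, a sterol reductase, measured 35.4, 34.3 and 39.3 TPM with antagomir and 24.6, 29.3 and 68.5 TPM with vehicle. Vehicle replicate 3 stood far above the others, and the fold change of -0.24 (SE 0.38) turned to 0.36 without it.

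Lss, lanosterol synthase, shows how the choice of unit matters. It measured 31.6, 52.4 and 49.97 TPM with antagomir and 31.7, 37.2 and 35.8 TPM with vehicle, while in CPM it measured 71.7, 84.6 and 80.7 with antagomir and 66.8, 72.3 and 88.6 with vehicle (log2 fold change 0.057, SE 0.16). The TPM sum includes Lss-205, an annotated retained-intron transcript of only 425 bases, which made up 15.0%, 44.7% and 41.5% of the gene's TPM in the antagomir libraries and 21.6%, 28.6% and 20.2% in the vehicle libraries. The full coding transcript Lss-201 made up 38.0 to 60.1% over the 6 libraries.

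**Figure D2:**
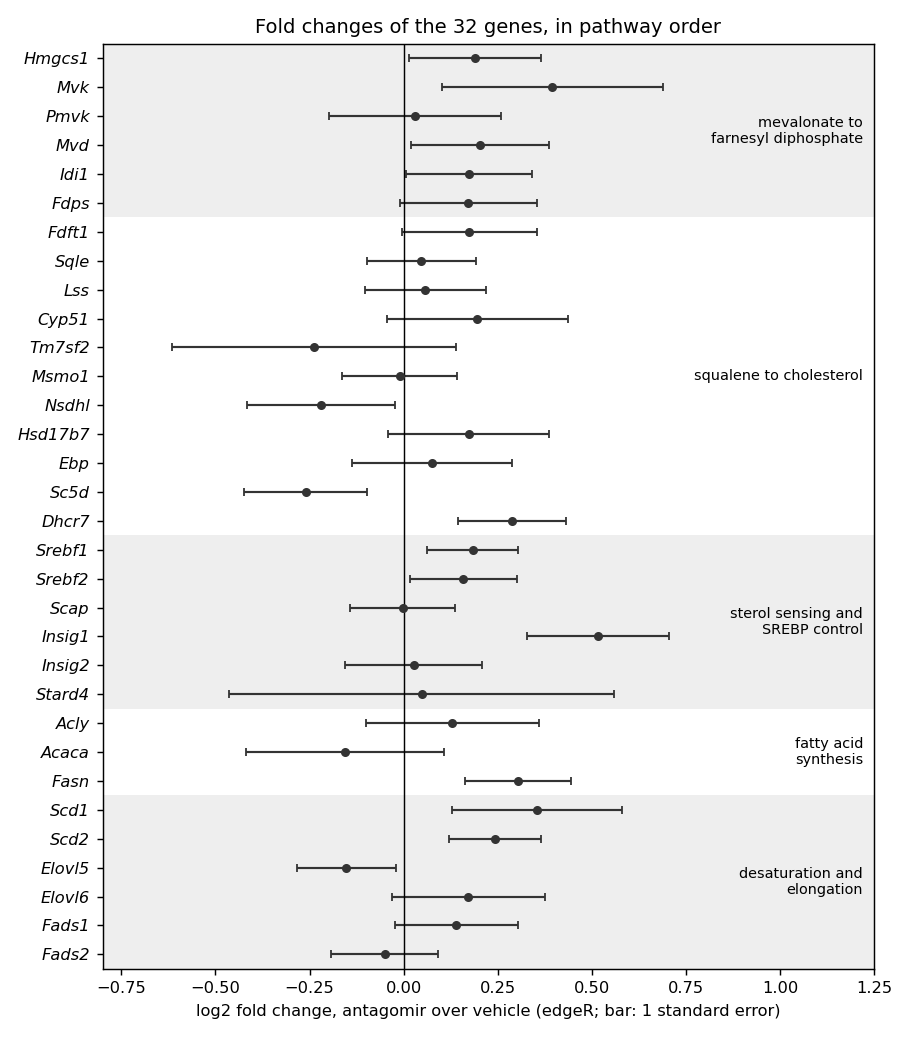
log2 fold change of antagomir over vehicle for each of the 32 genes (edgeR, all 6 libraries), with bars of 1 standard error, in pathway order from top to bottom. Points right of 0 are higher in the antagomir libraries (24 genes), those left of it lower (8 genes), and Insig1 lies farthest to the right at 0.52.

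Among the genes of sterol sensing and SREBP control 5 of 6 had positive fold changes, with a median of 0.10, and Insig1 stood out from the rest in size. Insig1 encodes an anchor that holds the SREBP escort Scap in the endoplasmic reticulum and is itself a target of SREBPs (ENSMUSG00000045294.11, chromosome 5, 28071363 to 28078662). It measured 229, 188 and 285 TPM in the antagomir libraries and 172, 167 and 134 TPM in the vehicle libraries. All 3 antagomir libraries were above all 3 vehicle libraries, and the means were 234 ± 48.8 TPM with antagomir and 158 ± 20.3 TPM with vehicle. The log2 fold change was 0.52 (SE 0.19, unadjusted p = 0.0249, edgeR adjusted p = 0.949), so the difference did not pass the test over all genes. It lay between 0.39 and 0.66 as each library was left out.

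Insig2, the second anchor, whose transcription does not depend on SREBPs in the same way, measured 39.0, 34.3 and 49.3 TPM with antagomir and 47.2, 51.8 and 38.2 TPM with vehicle. The groups overlapped, and the log2 fold change from counts was 0.027 (SE 0.18). Mean TPM went the other way, at 40.9 ± 7.65 with antagomir and 45.7 ± 6.89 with vehicle. The retained-intron transcript Insig2-206, of only 334 bases, made up 0 to 22.0% of the gene's TPM over the 6 libraries. The TPM of Insig2, and ratios that use it, are uncertain to that extent. The ratio of Insig1 to Insig2 in TPM was 5.87, 5.47 and 5.78 in the antagomir libraries and 3.64, 3.22 and 3.52 in the vehicle libraries. The ratios did not overlap between the groups (exact two-sided permutation p = 0.1, the smallest that 3 against 3 libraries can give). The permutation p adjusted over the 5 ratios computed was 0.25. These 5 were chosen after the levels were seen. They count the ratio of Insig1 to Insig2 once in TPM and once in CPM, which lowers its adjusted value. In CPM the same ratio was 7.43 to 8.22 with antagomir and 4.86 to 5.92 with vehicle.

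Srebf1, which encodes the SREBP that mainly drives fatty acid genes, measured 453, 519 and 516 TPM with antagomir and 391.6, 470.4 and 451 TPM with vehicle. In TPM the groups overlapped, and in CPM they did not, at 847, 801 and 899 with antagomir and 760, 769 and 715 with vehicle (log2 fold change 0.18, SE 0.12, edgeR adjusted p = 0.949). Its TPM was divided among several transcripts. Over the 6 libraries the coding transcripts Srebf1-207, Srebf1-201 and Srebf1-203 made up 30.7 to 38.6%, 18.6 to 28.6% and 12.3 to 21.01% of it. Transcripts annotated without a full coding type together made up 13.8 to 33.9%. Srebf2, which encodes the SREBP that mainly drives cholesterol genes, measured 129, 101 and 107 TPM with antagomir and 88.5, 105 and 94.7 TPM with vehicle (log2 fold change 0.16, SE 0.14). The groups overlapped, and without antagomir replicate 1 the fold change was 0.053. The ratio of Srebf1 to Srebf2 was 4.49 ± 0.848 with antagomir and 4.55 ± 0.181 with vehicle (exact permutation p = 1).

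Scap, the sterol-sensing escort of SREBPs, measured 59.4 ± 8.30 TPM with antagomir and 57.8 ± 1.94 TPM with vehicle, with a fold change of -0.0030 (SE 0.14). Stard4, a carrier of cholesterol between membranes, was the lowest member, at 4.65, 6.22 and 6.20 TPM with antagomir and 3.33, 2.34 and 6.86 TPM with vehicle. Its vehicle libraries alone spanned the antagomir range, with 46 counts in vehicle replicate 2 and 224 in vehicle replicate 3, and its fold change of 0.047 had an SE of 0.51.

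Of the genes of fatty acid synthesis, Fasn and Acly had positive fold changes and Acaca a negative one. Fasn encodes fatty acid synthase, the enzyme that assembles palmitate (ENSMUSG00000025153.9, chromosome 11, 120805846 to 120824547), and it measured 119, 96.3 and 133 TPM in the antagomir libraries and 89.7, 94.3 and 78.4 TPM in the vehicle libraries. The groups did not overlap, though antagomir replicate 2 stood only just above vehicle replicate 2 (log2 fold change 0.30, SE 0.14, unadjusted p = 0.0618, edgeR adjusted p = 0.949). Acly, which supplies cytosolic acetyl-CoA from citrate, measured 153, 91.5 and 112 TPM with antagomir and 118, 99.4 and 88.1 TPM with vehicle. Antagomir replicate 1 was the highest and antagomir replicate 2 lay inside the vehicle range, and the fold change of 0.13 (SE 0.23) was -0.12 without antagomir replicate 1. Acaca, acetyl-CoA carboxylase, which makes malonyl-CoA, measured 14.3, 17.6 and 14.1 TPM with antagomir and 12.5, 20.5 and 22.6 TPM with vehicle (log2 fold change -0.16, SE 0.26). Vehicle replicate 1 was the lowest of all, and without vehicle replicate 3 the fold change was 0.036. The median over these 3 genes was 0.13 and is the value of Acly. It was -0.12 without antagomir replicate 1 and lay between 0.036 and 0.30 without each other library.

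Desaturases and elongases held the most abundant members. Scd2, the stearoyl-CoA desaturase typical of brain, which makes monounsaturated fatty acids (ENSMUSG00000025203.6, chromosome 19, 44293674 to 44306864), measured 1740, 1675 and 1819 TPM in the antagomir libraries and 1313, 1563 and 1349 TPM in the vehicle libraries. All 3 antagomir libraries stood above all 3 vehicle libraries, with means of 1745 ± 72.1 and 1409 ± 135 TPM for antagomir and vehicle (log2 fold change 0.24, SE 0.12, unadjusted p = 0.0829, edgeR adjusted p = 0.949). The fold change lay between 0.21 and 0.31 as each library was left out. Scd1, the closely related desaturase that predominates in liver and fat, measured 39.0, 20.7 and 29.7 TPM with antagomir and 24.0, 22.5 and 20.2 TPM with vehicle. The groups overlapped (log2 fold change 0.35, SE 0.23), and the fold change was 0.12 without antagomir replicate 1 and 0.56 without antagomir replicate 2. The ratio of Scd2 to Scd1 was 44.7 to 80.8 in the antagomir libraries and 54.8 to 69.5 in the vehicle libraries. The Scd genes lie in a family of similar copies, and kallisto divides shared reads among them by a model, so the lower Scd1 values are uncertain.

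Fads2 and Fads1, the desaturases of polyunsaturated fatty acids, measured 723 ± 99.8 and 383 ± 78.8 TPM with antagomir and 714 ± 28.6 and 332 ± 6.23 TPM with vehicle. Their fold changes were -0.051 (SE 0.14) for Fads2 and 0.14 (SE 0.16) for Fads1. The 3 vehicle libraries of Fads1 lay close together, at 325, 337 and 334 TPM, while the antagomir libraries measured 468, 313 and 369 TPM, and without antagomir replicate 1 its fold change was -0.028. Elovl5, the elongase that acts with them on polyunsaturated chains and one of the genes with an 8mer match shown above, measured 264, 233 and 268 TPM with antagomir and 296, 278 and 242 TPM with vehicle. The groups overlapped (log2 fold change -0.15, SE 0.13), and the sign was negative in every setting tried, at -0.083 without vehicle replicate 1 and -0.092 without antagomir replicate 2. Elovl6, which elongates palmitate and also holds an 8mer match, measured 27.9, 25.5 and 29.1 TPM with antagomir and 16.2, 31.0 and 24.0 TPM with vehicle. The antagomir libraries lay within the vehicle range (log2 fold change 0.17, SE 0.20). The fold change was 0.058 without vehicle replicate 1, 0.092 without antagomir replicate 3 and 0.32 without vehicle replicate 2.

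**Figure D3:**
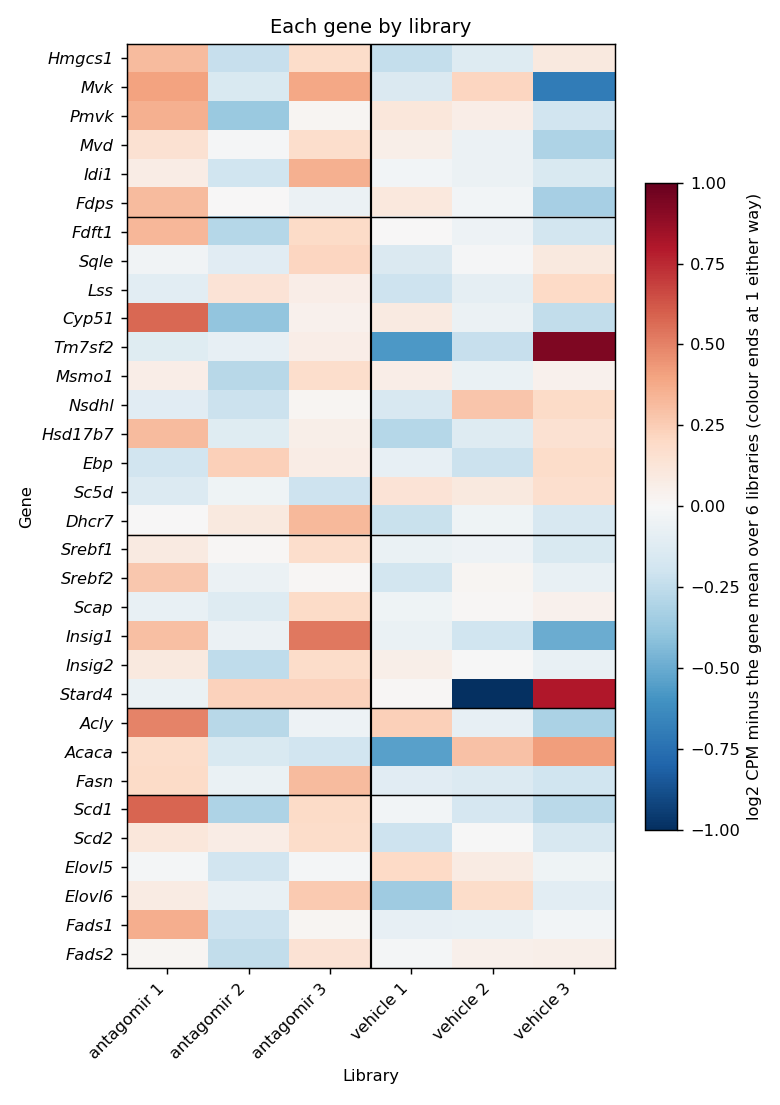
log2 CPM of each gene in each library minus the gene's mean over the 6 libraries, with antagomir libraries left of the black line and vehicle libraries right of it, and genes in pathway order. Antagomir replicates 1 and 3 are mostly above the mean and antagomir replicate 2 mostly below it, with median deviations of 0.10, 0.18 and -0.12.

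The antagomir libraries were not alike. Antagomir replicate 1 had the highest TPM of the 6 libraries for 10 members and antagomir replicate 3 for 11, against 3 for antagomir replicate 2 and 2, 3 and 3 for the vehicle libraries. Antagomir replicate 2 had the lowest TPM for 9 members, vehicle replicate 1 for 10 and vehicle replicate 3 for 8. The members' median deviation from their mean log2 CPM was 0.10, -0.12 and 0.18 in the antagomir libraries and -0.069, -0.049 and -0.074 in the vehicle libraries. The antagomir group thus held the library with the lowest value and those with the highest, and the vehicle group lay between them in a narrow range. In summed TPM the members reached 5942, 5193 and 6118 with antagomir and 4838, 5285 and 4916 with vehicle, and vehicle replicate 2 exceeded antagomir replicate 2. The 3 members highest in antagomir replicate 2 were Lss, Ebp and Srebf1.

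**Figure D4:**
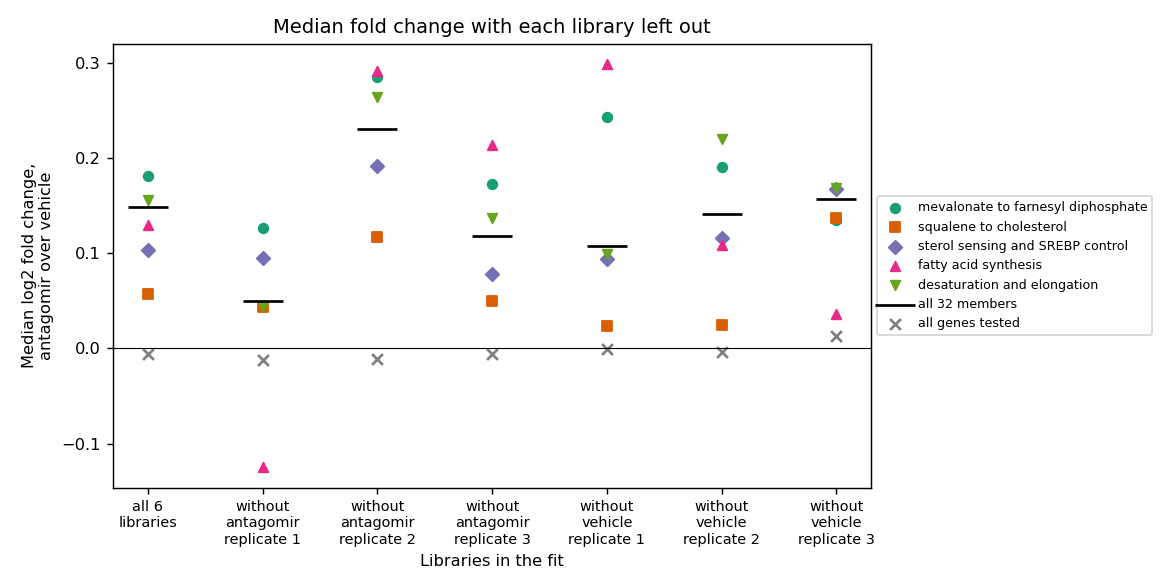
Median log2 fold change of antagomir over vehicle, with all 6 libraries and with each library left out, for all 32 members (black line), each stage of the pathway (coloured symbols) and all genes tested (grey cross). The members' line stays above 0 throughout, between 0.050 and 0.23, and the fatty acid synthesis median falls to -0.12 without antagomir replicate 1.

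The sorted cells carried transcripts of other cell types, whose levels are given because oligodendrocytes and astrocytes make most brain cholesterol. Fewer cells of a type and less RNA per cell cannot be told apart in such samples. All 12 oligodendrocyte markers had positive fold changes, and their summed TPM was 11918, 16642 and 15841 with antagomir and 7021, 15222 and 10690 with vehicle. The myelin gene Mbp alone measured 2951, 2943 and 2714 TPM with antagomir and 1525, 2626 and 1736 TPM with vehicle. Its groups did not overlap in TPM, the only such case among the 12 (8.33%, against 7.05% of all genes higher). Mbp was also the only marker of the 12 with an edgeR unadjusted p under 0.05 (8.33%, against 2.18% of all genes higher). Of 7 oligodendrocyte precursor markers 6 were positive, with sums of 439 to 672 TPM with antagomir and 298 to 592 TPM with vehicle. These sums mostly reflect Olig1, at 340 ± 71.4 TPM with antagomir and 257 ± 92.7 TPM with vehicle. Pdgfra measured only 13.4 ± 6.58 and 6.03 ± 4.13 TPM in the antagomir and vehicle libraries. Gpr17 and Enpp6 were higher with antagomir without overlap in TPM (28.6%, against 7.05% of all genes). Both also had an edgeR unadjusted p under 0.05 (28.6%, against 2.18% of all genes higher). All 8 astrocyte markers had negative fold changes, and their summed TPM was 5365, 3761 and 4890 with antagomir and 5047, 5053 and 5076 with vehicle. Of the 8, Slc1a2, Slc7a10 and Cldn10 were lower in the antagomir libraries without overlap in TPM (37.5%, against 3.7% of all genes). The same 3 had an edgeR unadjusted p under 0.05 (37.5%, against 1.93% of all genes lower). Antagomir replicate 2 had the lowest astrocyte sum and the highest oligodendrocyte sum. Of 8 stem cell markers 3 were positive, and the stem and glial gene Slc1a3 measured 1211, 766 and 1032 TPM with antagomir and 1101, 1080.2 and 1084 TPM with vehicle.

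Microglia markers summed to 2462 TPM in vehicle replicate 1, against 170.4 to 384 TPM in the antagomir libraries and 356 and 218 TPM in the other vehicle libraries, with 10 of 10 fold changes negative. All 7 neuroblast markers were positive, with sums of 957, 293 and 299 TPM with antagomir and 491, 155 and 128 TPM with vehicle, and so were 6 of 6 cell cycle genes, with sums of 317, 267 and 345 TPM with antagomir and 263, 89.1 and 84.7 TPM with vehicle. All 6 ependymal markers were negative, with sums of 2443 to 3982 TPM with antagomir and 3315 to 4263 TPM with vehicle, and 3 of 4 neuron markers were positive, with sums of 101 to 207 and 87.7 to 149 TPM. Choroid plexus markers summed to 52.5 to 119 TPM with antagomir and 74.6 to 112 TPM with vehicle (1 of 3 tested positive), and endothelial markers to 3.93 to 9.87 and 6.79 to 13.3 TPM (1 of 2 tested positive). Of the 6 cell cycle genes, 4 were higher with antagomir without overlap in TPM (66.7%, against 7.05% of all genes). In edgeR 3 cell cycle genes had an unadjusted p under 0.05 (50%, against 2.18% of all genes higher). Of the 10 microglia markers, 1 was lower without overlap in TPM (10%, against 3.7%), and 4 had an unadjusted p under 0.05 (40%, against 1.93% lower). Of the 6 ependymal markers, Tekt1 was lower at an edgeR unadjusted p under 0.05 (16.7%, against 1.93%). Of the 2 endothelial markers tested, 1 was lower at that level (50%, against 1.93%). The stem cell, neuroblast, neuron and choroid plexus lists held 0 markers at that level. No marker in these lists was at 0 counts in all 6 libraries. No marker passed the edgeR test, and the part of these cell types in the synthesis genes' levels was not tested.

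**Figure D5:**
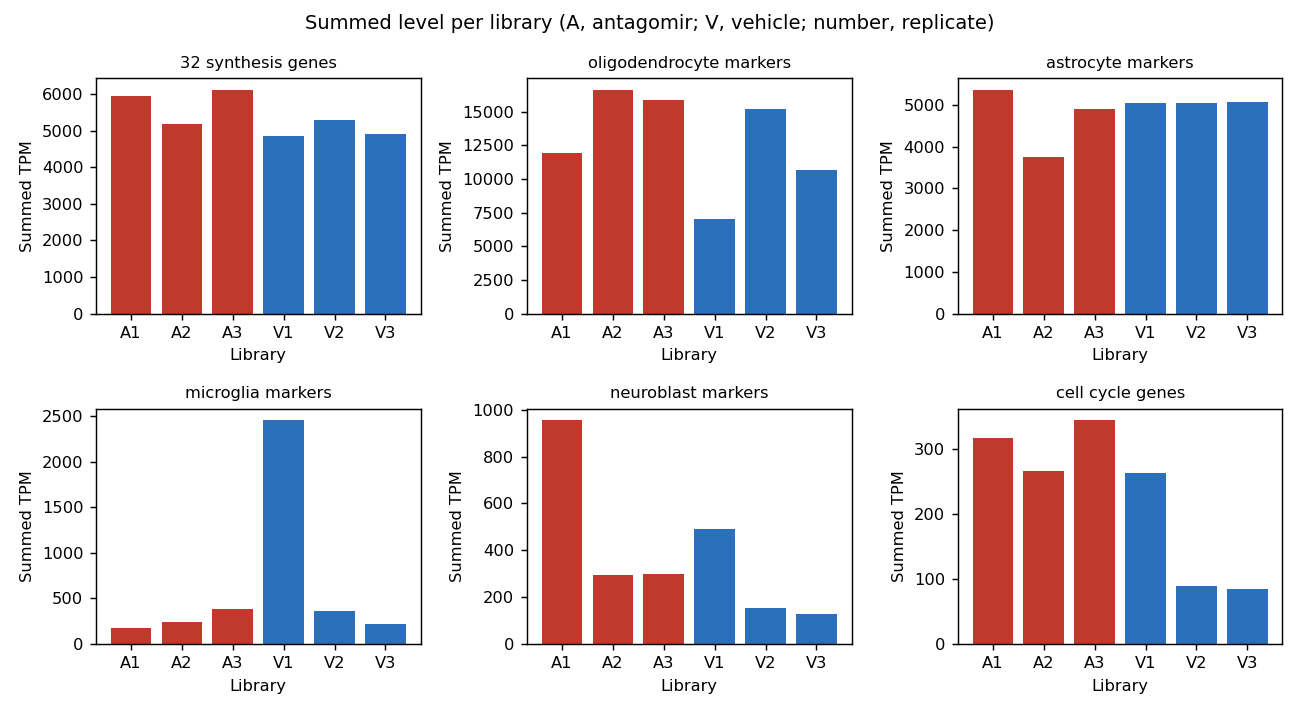
Summed TPM per library of the 32 synthesis genes and of 5 of the marker lists, with antagomir libraries (A) left of vehicle libraries (V) and bars starting at 0. Microglia markers stand out in vehicle replicate 1 (2462 TPM) and neuroblast markers in antagomir replicate 1 (957 TPM).

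Other genes of lipid synthesis, taken from a list of 54 that were all tested, were spread to both sides of 0. Of the 54, 31 had positive and 23 negative fold changes, with a median of 0.027, and edgeR called 0 of them. In edgeR 1 gene, Dhdds, was higher at an unadjusted p under 0.05 (1.85%, against 2.18% of all genes). By role, 11 of 12 genes of SREBP processing and control were positive (median 0.065), as were 5 of 10 of the isoprenoid branches (median -0.020), 1 of 6 of sterol storage and turnover (median -0.15), 5 of 8 of fatty acid supply (median 0.052), 7 of 13 other elongases and desaturases (median 0.098) and 2 of 5 acyl-CoA synthetases (median -0.15). None of these counts comes with a test of the group.

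Dhdds, a subunit of the enzyme that makes dolichol from farnesyl diphosphate, measured 64.4, 61.3 and 60.9 TPM with antagomir and 38.0, 46.6 and 34.3 TPM with vehicle. The antagomir libraries lay close together and above all vehicle libraries (log2 fold change 0.48, SE 0.18, unadjusted p = 0.0256, edgeR adjusted p = 0.949). Erlin1, an endoplasmic reticulum protein of sterol-regulated protein breakdown, measured 14.1, 12.5 and 14.8 TPM with antagomir and 7.95, 6.50 and 10.5 TPM with vehicle, again without overlap (0.52, SE 0.24). Scd3, another stearoyl-CoA desaturase, measured 3.62, 6.24 and 4.60 TPM with antagomir and 2.38, 2.94 and 3.06 TPM with vehicle (0.72, SE 0.36), with the same uncertainty of shared reads as Scd1. Over all 54 genes the groups did not overlap in TPM in 5 with antagomir higher (9.26%, against 7.05% of all genes tested), including Mbtps1 and Prkaa2. With antagomir lower this held for 0 (0%, against 3.7%). In CPM 3 were higher (5.56%, against 5.07%) and 2 lower, Coq2 and Hacd3 (3.70%, against 5.45%). The other genes with the smallest p overlapped between the groups.

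Among these, Elovl7, an elongase of long saturated chains, had a log2 fold change of 0.52 (SE 0.25), the acyl-CoA synthetases Acsl1 and Acsl5 had 0.47 (SE 0.26) and -0.63 (SE 0.32), Soat1, which esterifies cholesterol for storage, had -0.27 (SE 0.15) and Pggt1b, a subunit of a protein prenyltransferase, had -0.45 (SE 0.27). Soat1 was also the most abundant gene of sterol storage and turnover, at 96.8 ± 15.8 TPM with antagomir and 109 ± 16.7 TPM with vehicle. The most abundant genes of the other groups follow. Tecr, the reductase of the elongation cycle, measured 756 ± 75.8 TPM with antagomir and 675 ± 40.2 TPM with vehicle, and the acyl-CoA synthetase Acsl3 measured 537 ± 90.5 and 488 ± 44.8 TPM in the antagomir and vehicle libraries. Mid1ip1, which promotes the assembly of acetyl-CoA carboxylase, measured 561 ± 28.3 TPM with antagomir and 493 ± 37.5 TPM with vehicle. Fnta, a farnesyltransferase subunit, measured 142 ± 4.98 TPM with antagomir and 139 ± 11.6 TPM with vehicle, and the citrate carrier Slc25a1 measured 88.8 ± 7.09 TPM with antagomir and 85.9 ± 19.7 TPM with vehicle.

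At the level of transcripts, 7 members had a single listed transcript, and in 13 the most abundant one made up over 90% of the gene's TPM on average. In 7 members it made up under 50%, so their gene totals rest on several estimated parts. The coding transcript Insig1-201 made up 90.9%, 83.5% and 83.2% of Insig1 in the antagomir libraries and 87.4%, 84.4% and 80.9% in the vehicle libraries. In TPM it measured 208, 157 and 237 with antagomir and 150.2, 141 and 109 with vehicle, without overlap. In Sc5d the reads were divided between Sc5d-201 and Sc5d-202, and Sc5d-201 made up 100%, 49.2% and 57.5% with antagomir and 45.3%, 49.7% and 64.9% with vehicle. Sc5d-202 was estimated close to 0 in antagomir replicate 1, and with Sc5d-201 alone the log2 fold change was 0.058 on the log2(TPM + 1) scale, in place of -0.26 for the gene's counts. The coding transcript Cyp51-201 made up 90.2% of Cyp51 in antagomir replicate 1 and 69.3 to 76.1% in the other 5 libraries.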

How the data were processed

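The 6 libraries were prepared with the PicoPure, SMART-Seq v4 and MicroPlex v2 kits and sequenced as 100 bp paired-end reads on an Illumina HiSeq, per the labels' protocols. The kit does not mark strand, so reads of overlapping antisense genes cannot be told apart. Kallisto, sleuth and mm10 stand in the submitters' processing notes, and their versions are not given in the sources used here. Per the file headers, the deposited estimated counts are those kallisto assigns to each transcript, without normalization. The deposited TPM values divide these by effective length and scale each library to the same total, per the file headers.

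Of 99567 transcripts, 98294 matched GENCODE M21 (GRCm38) by identifier without version. The other 1273 held 0.524 to 0.586% of counts and were left out. Values were summed per gene and counts rounded. Libraries held 14866453 to 19694409 estimated counts, and no 2 libraries agreed within sampling noise (chi-square per gene of 22.6 to 93.6 over all pairs).

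edgeR 4.0.16 (R 4.3.3) was used with TMM factors, filterByExpr defaults (minimum count 10), group as the only term, the quasi-likelihood test in its robust form and Benjamini-Hochberg adjustment over 15012 genes at 0.05. SEs are the size of the log2 fold change divided by the square root of F. The test was tried on simulated data of 14707 genes, 200 of them changed. It made 9 false calls, beside true calls of 0, 18, 37 and 40 of 50 genes changed 1.5-, 2-, 4- and 8-fold. Ratios were compared with exact permutation tests.

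Groups and replicate numbers came from the sample titles. Alternatives were other scaling factors, other filters, DESeq2 1.42.0, limma 3.58.1 (voom, and log2(TPM + 1) or log2(TPM + 0.1) at a mean TPM of at least 1), the most abundant transcript alone, a replicate block and leaving out each library. The genes named are all 32 members, the 8 other pathway genes with the smallest p, the most abundant of each of their groups, and leading markers. The members and lists were chosen with earlier results of these data known.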

Additional observations from a re-analysis of the deposited data

How the results depend on the processing

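Every member except Stard4 had at least 242 counts in each library. Over 16 alternatives 0 members were called, and 470 of 512 member values kept their sign, with 17 members keeping it throughout (15 positive, among them Insig1, Dhcr7, Fasn, Scd2 and Srebf1, and 2 negative, Nsdhl and Elovl5). Over all genes edgeR and limma called 0 under every alternative and DESeq2 called 5. Between 20 and 27 members were positive as each library was left out, and the members' median was then 0.050 to 0.23 (0.097 with limma-voom). The medians ranged from 0.13 to 0.29 for the mevalonate stage, 0.024 to 0.14 for squalene to cholesterol, 0.078 to 0.19 for sterol sensing, -0.12 to 0.30 for fatty acid synthesis and 0.045 to 0.26 for desaturation and elongation. The sterol sensing median was 0.20 with log2(TPM + 1), 0.20 with log2(TPM + 0.1) and 0.23 with the most abundant transcript alone. In these settings the median over all genes also rose, to 0.043, 0.048 and 0.058, from -0.0062 in the main fit. The causes were not tested.

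Signs turned as follows. With DESeq2 size factors Scap was 0.0025. Without a filter Scap was 0.0077 and Msmo1 0.0013. With DESeq2 Scap was 0.0060. With limma-voom Pmvk was -0.046, Msmo1 0.032 and Scap 0.047. With log2(TPM + 1) Msmo1 was 0.017, Scap 0.032, Insig2 -0.16 and Fads2 0.010, and with log2(TPM + 0.1) they were 0.017, 0.032, -0.17 and 0.010. With the most abundant transcript alone Msmo1 was 0.052, Sc5d 0.058, Scap 0.066 and Fads2 0.010. As each library was left out, Pmvk ranged from -0.16 to 0.20, Sqle from -0.045 to 0.12, Lss from -0.022 to 0.19, Cyp51 from -0.093 to 0.41, Tm7sf2 from -0.50 to 0.36, Msmo1 from -0.095 to 0.12, Ebp from -0.022 to 0.20, Scap from -0.095 to 0.065, Insig2 from -0.050 to 0.15, Stard4 from -0.32 to 0.62, Acly from -0.12 to 0.30, Acaca from -0.39 to 0.036, Fads1 from -0.028 to 0.27 and Fads2 from -0.13 to 0.058.

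With a replicate block 0 genes were called, 24 members were positive and their median was 0.15, while 1284 genes had an unadjusted p under 0.05, against 616 without the block, and the smallest adjusted p of a member (Insig1, edgeR) was 0.537, against 0.949. The deviations of same-numbered libraries correlated at 0.195, 0.0749 and 0.0275, and antagomir replicates 2 and 3 correlated best with another number. Not every pair exceeded 0.1, and the labels tie the numbers to no animal or day, so the numbers were not used to pair libraries.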
